A study of Mus musculus with 8 samples.

Results

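Expression of 9 genes of central nervous system myelin was followed through mouse brain after stroke: Mbp, Mog, Mag, Mobp, Cnp, Mal, Opalin, Ugt8a and Aspa. They were chosen by symbol, as 9 of the 22911 genes with a named probe, and 14 probes carry a RefSeq accession that maps to one of these names. Expression was measured on 8 one-colour microarrays, 1 per group, so every difference given here rests on single arrays, has no replicate check and carries no test. The tissue groups were brain from DEREG mice after ischemia, wild type (WT) mice after ischemia, sham-operated DEREG mice and sham-operated WT mice, all at day 14 and taken as the third slice on the ischemic side. DEREG mice carry a transgene in which the Foxp3 promoter, active in regulatory T cells (Treg), drives the diphtheria toxin receptor, and the labels do not state whether toxin was given. The T cell groups were Treg and CD4+ T cells other than Treg (nonTreg) from ischemic brain of WT mice at day 14, and Treg and nonTreg from the spleen of untreated mice. The labels do not give the number or age of the animals behind an array.

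Myelin is the layered membrane that oligodendrocytes wrap around axons in the brain, where it insulates them and speeds conduction. Its compact layers are held together by basic proteins on the inner face of the membrane (Mbp and Mobp) and are rich in galactolipids made by Ugt8a, while Mag, Mog and Cnp lie at the innermost, outermost and non-compact parts of the sheath. Stroke damages white matter as well as neurons, and myelin transcripts are a common readout of oligodendrocyte loss and of later repair.

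Levels are given as scaled signal, the processed intensity divided by the 75th percentile of its array, and differences on the log2 scale. All 14 probes were well above background on all 4 tissue arrays, so no difference in tissue is a bound. Each gene is represented by its brightest probe, and further probes are given where there are any. Of all probes, 62.0% to 65.1% were well above background on the tissue arrays and 47.6% to 51.9% on the T cell arrays. Probes spotted repeatedly on one array had an SD of 0.039 to 0.042 (log2), which is a technical error only. Between the sham arrays, DEREG sham and WT sham differed by a median of 0.09 (log2, absolute) over 15630 genes, and 95% of genes differed by less than 0.44. In whole tissue, fewer oligodendrocytes and less RNA per oligodendrocyte cannot be told apart.

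The promoters of 4 members are shown. On the brightest probe of each gene, Opalin, Ugt8a and Mobp had the lowest signal relative to sham after stroke in both genotypes. With the median over a gene's probes, Mobp (-0.375) was above Mog (-0.572) in WT mice. Ugt8a (-0.28) was then above Mal (-0.401) in DEREG mice. Cnp is set beside the 3 genes as one that lay within 0.09 (log2) of its sham level in both genotypes. Each line holds the 250 bases before the annotated start, 5′ to 3′ on the gene's strand, from RefSeq on build GRCm38.p6. Capitals mark matches, on either strand, to ACAATG or ACAAAG (a SOX motif, the family of Sox10) and to CTGGCAC or CTGGTAC (a motif of Myrf, a regulator of myelin genes). The windows are chr19:41077114-41077363 (minus strand) for Opalin, chr3:125938653-125938902 (minus) for Ugt8a, chr9:120149492-120149741 (plus) for Mobp and chr11:100574689-100574938 (plus) for Cnp.
Opalin: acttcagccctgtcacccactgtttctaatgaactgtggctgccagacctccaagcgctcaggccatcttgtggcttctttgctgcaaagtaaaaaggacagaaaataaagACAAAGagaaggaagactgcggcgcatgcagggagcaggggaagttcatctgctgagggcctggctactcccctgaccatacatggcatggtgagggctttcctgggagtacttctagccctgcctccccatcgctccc
Ugt8a: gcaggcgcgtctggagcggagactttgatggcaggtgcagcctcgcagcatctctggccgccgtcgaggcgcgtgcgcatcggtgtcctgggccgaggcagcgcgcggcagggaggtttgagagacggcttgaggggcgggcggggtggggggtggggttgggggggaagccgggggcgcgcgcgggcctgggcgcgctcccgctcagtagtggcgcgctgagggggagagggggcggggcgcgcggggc
Mobp: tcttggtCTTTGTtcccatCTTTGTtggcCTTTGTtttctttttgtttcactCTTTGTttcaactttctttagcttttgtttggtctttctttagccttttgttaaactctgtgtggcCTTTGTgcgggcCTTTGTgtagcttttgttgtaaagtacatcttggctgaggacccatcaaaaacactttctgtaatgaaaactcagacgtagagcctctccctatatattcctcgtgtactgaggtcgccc
Cnp: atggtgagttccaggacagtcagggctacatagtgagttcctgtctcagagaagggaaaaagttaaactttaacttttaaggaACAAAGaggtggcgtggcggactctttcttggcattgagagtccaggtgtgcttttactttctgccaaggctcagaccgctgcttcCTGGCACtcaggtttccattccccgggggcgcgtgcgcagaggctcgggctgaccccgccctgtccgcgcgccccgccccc

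The Mobp window held 6 SOX matches, the first at base -243 from the start and the last at -120. The Opalin window held 1 SOX match at -139, and the Cnp window held 1 SOX match at -167 and 1 Myrf match at -81. The Ugt8a window held neither. No match overlapped another. A promoter was on hand for 8 of the 9 genes, 10 promoters in all. A gene counts here if any of its promoters holds a match. A SOX match lay in 4 of these 8 genes and 5 of 10 promoters, against 25.2% of 32851 promoters of the same length. A Myrf match lay in 3 of 8 genes (Mag, Cnp and Mog) and 4 of 10 promoters, against 5.9% of promoters. Overlapping Mag windows share their SOX and Myrf matches. The E-box CAGCTG, a site for basic helix-loop-helix factors such as Olig2, lay in 1 of 8 genes (Aspa) and 1 of 10 promoters, against 13.0% of promoters. These matches describe letters in the windows and not bound sites.

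After stroke in WT mice, 8 of the 9 genes were lower in ischemic tissue than in sham tissue on the probe used and Mbp was higher. Among all genes, 9470 of 16968 were lower, and 6 of the 9 lay below the median of all genes. Mag, Cnp and Aspa changed sign with quantile normalization, and Cnp and Aspa also with the percentile over detected probes. Opalin and Ugt8a were at least 2-fold lower, which is 2 of 9 where 18.4% of 16968 genes were, and none was 2-fold higher, as were 18.8% of genes. At 1.5-fold the counts were 4 of 9 lower (Opalin, Ugt8a, Mobp and Mog) and 0 higher, against 31.2% lower and 26.2% higher among all genes. Mog lay just past this fold, and was under it with normexp, with quantile normalization, with the percentile over detected probes and with the median over its probes. Ugt8a was likewise under 2-fold with normexp, with the percentile over detected probes and with the median over its probes. The median of the 9 differences was -0.55, beside a median of -0.14 over all genes. After stroke in DEREG mice, 6 of 9 were lower, beside 8951 of 17161 among all genes. Of the 6, Cnp changed sign with quantile normalization and with the percentile over detected probes. None of the 9 differed by 2-fold in either direction, where 22.1% of 17161 genes were 2-fold lower and 22.4% were 2-fold higher. Mobp and Opalin were at least 1.5-fold lower (Opalin by a narrow margin), 2 of 9 against 32.3% of genes, and 0 were 1.5-fold higher against 30.9%. The median was -0.40 in DEREG mice, beside -0.06 over all genes. With the median over a gene's probes in place of the brightest, 2 genes were 1.5-fold lower and 1 was 2-fold lower in WT mice. Over the 14 probes taken singly the median was -0.039 in DEREG mice and -0.49 in WT mice.

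**Figure D1:**
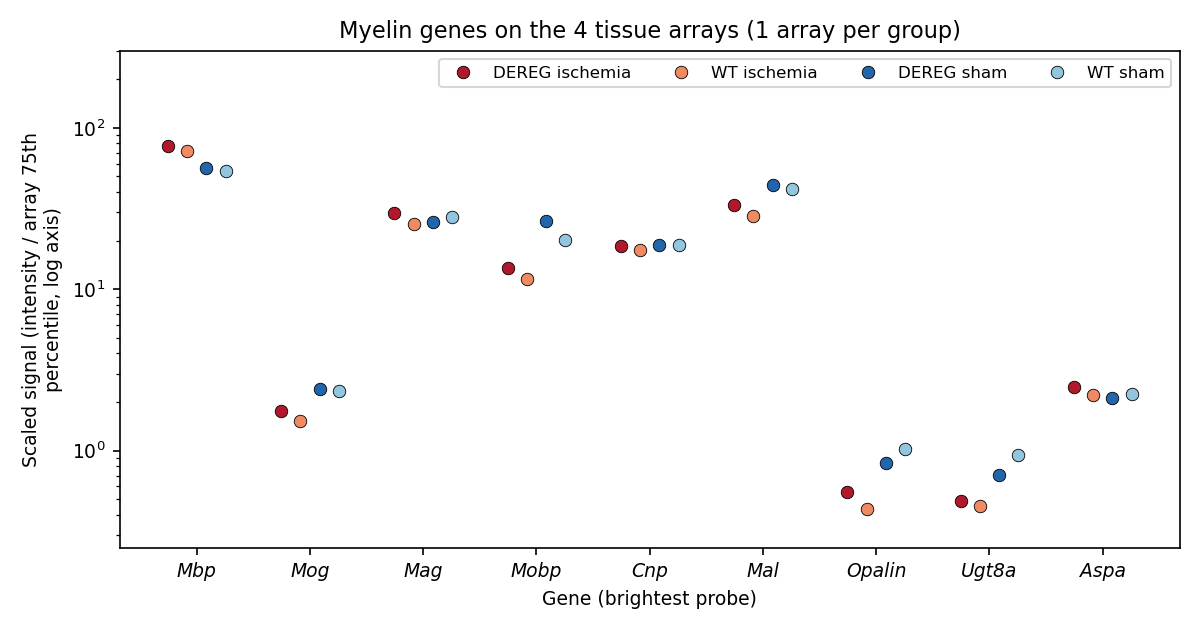
Scaled signal (log axis, processed intensity over the array's 75th percentile) of the brightest probe of each of the 9 genes, 1 point per tissue array. Each gene should be read against itself, since signals of different probes are not comparable; Opalin, Ugt8a, Mobp, Mog and Mal have both ischemia points below both sham points, and Mbp has them above.

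The basic protein genes of compact myelin, Mobp and Mbp, differed from one another on the probes used. Mobp encodes a small basic protein of compact myelin. Its probe had a scaled signal of 13.6 in DEREG ischemia and 11.6 in WT ischemia, against 26.3 in DEREG sham and 20.3 in WT sham. Both ischemic arrays were below both sham arrays, by 1.94-fold in DEREG mice and 1.74-fold in WT mice. The second Mobp probe, designed against NM_001039365 where the first was designed against NM_008614, had 6.21 in DEREG ischemia, 5.70 in WT ischemia, 6.14 in DEREG sham and 5.50 in WT sham. It differed from sham by 0.02 in DEREG mice and 0.05 in WT mice, so the lower Mobp level after stroke was seen on 1 of 2 probes. The probes lay 1.96-fold apart in their stroke difference in DEREG mice and 1.81-fold apart in WT mice.

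Mbp encodes myelin basic protein, which joins the inner faces of the membrane. Its brightest probe had 77.4 in DEREG ischemia and 71.8 in WT ischemia, against 56.4 in DEREG sham and 54.3 in WT sham. Ischemic tissue was 1.37-fold higher in DEREG mice and 1.32-fold higher in WT mice. A second probe for the same accession, NM_010777, had 19.0 in DEREG ischemia and 18.7 in WT ischemia, against 13.9 in DEREG sham and 13.1 in WT sham, a difference of 0.45 in DEREG mice and 0.51 in WT mice. Both probes for this accession therefore put the ischemic arrays above the sham arrays.

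The third Mbp probe went the other way. This probe, designed against NM_001025245, had 4.49 in DEREG ischemia and 4.78 in WT ischemia, against 7.33 in DEREG sham and 8.01 in WT sham. Its stroke difference was -0.71 in DEREG mice and -0.74 in WT mice (log2). The ratio of this probe to the brightest one, which does not depend on how arrays are scaled, was -4.11 (log2) in DEREG ischemia and -3.91 in WT ischemia, against -2.94 in DEREG sham and -2.76 in WT sham. The spread between Mbp probes in their stroke difference was 2.24-fold in DEREG mice and 2.39-fold in WT mice, larger than that of any other member with several probes. As background, the mouse Mbp locus encodes both the classic myelin basic proteins and the longer golli proteins, which are also found in neurons and T cells. The files do not say which of these transcripts a probe detects.

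Mal, a proteolipid that takes part in sorting membrane to the sheath, had 33.3 in DEREG ischemia and 28.6 in WT ischemia, against 43.9 in DEREG sham and 41.9 in WT sham. It was 1.32-fold lower after stroke in DEREG mice and 1.47-fold lower in WT mice. Opalin, a transmembrane glycoprotein of oligodendrocytes, had 0.555 in DEREG ischemia and 0.438 in WT ischemia, against 0.834 in DEREG sham and 1.02 in WT sham. It had the lowest value of the 9 in WT mice, 2.33-fold below sham, and had a difference of -0.59 (log2) in DEREG mice. Each of these 2 genes has 1 probe on the array.

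Mog, Mag and Cnp lie outside compact myelin. Of these, Mog was lower after stroke on the probe used, at -0.44 in DEREG mice and -0.61 in WT mice. Mag and Cnp differed from sham by less than 0.44 (log2), a limit that Mog passed in DEREG mice only narrowly and on 1 probe. Mog, the glycoprotein of the outermost membrane, had 1.76 in DEREG ischemia and 1.53 in WT ischemia, against 2.40 in DEREG sham and 2.34 in WT sham. These are 1.36-fold and 1.53-fold lower signals in DEREG and WT ischemic tissue. The other Mog probe had 1.73 in DEREG ischemia and 1.33 in WT ischemia, against 1.80 in DEREG sham and 1.92 in WT sham, differences of -0.06 in DEREG mice and -0.53 in WT mice. The DEREG difference of Mog was thus seen on 1 of its 2 probes and the WT difference on both.

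Mag is the adhesion molecule of the membrane that faces the axon. It had 29.9 in DEREG ischemia and 25.2 in WT ischemia, against 26.0 in DEREG sham and 28.2 in WT sham, so that DEREG ischemia was the highest and WT ischemia the lowest of the 4 arrays. The difference after stroke was 0.20 in DEREG mice and -0.16 in WT mice. Cnp, an enzyme of the non-compact sheath that keeps cytoplasmic channels open, had 18.6 in DEREG ischemia and 17.6 in WT ischemia, against 18.9 in DEREG sham and 18.7 in WT sham. Its differences of -0.02 in DEREG mice and -0.09 in WT mice were about the size of the median difference between the sham arrays or smaller.

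The 2 members that act on lipids and their precursors differed from one another. Ugt8a makes galactosylceramide, the main glycolipid of myelin. It had 0.485 in DEREG ischemia and 0.454 in WT ischemia, against 0.704 in DEREG sham and 0.936 in WT sham, which is 1.45-fold lower in DEREG mice and 2.06-fold lower in WT mice. Its dimmer probe had 0.209 in DEREG ischemia, 0.206 in WT ischemia, 0.212 in DEREG sham and 0.280 in WT sham, and differed from sham by -0.02 in DEREG mice and by -0.45 in WT mice. On that probe WT sham stood above the 3 other arrays, which lay close together.

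Aspa encodes aspartoacylase, which splits N-acetylaspartate into aspartate and the acetate used for lipid synthesis. It had 2.48 in DEREG ischemia and 2.22 in WT ischemia, against 2.12 in DEREG sham and 2.26 in WT sham. The difference was 0.23 in DEREG mice and -0.03 in WT mice, inside the range that holds 95% of genes between the sham arrays.

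**Figure D2:**
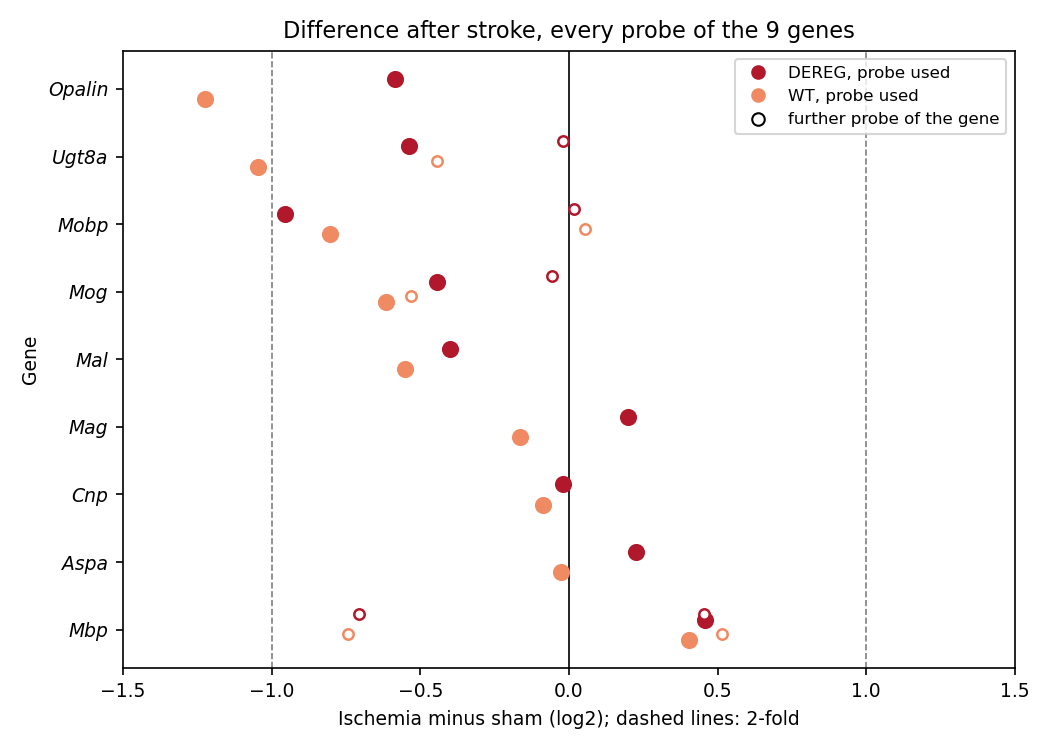
Difference between ischemia and sham (log2, x axis) for every probe of the 9 genes, with DEREG points above WT points in each row, filled for the probe used and open for further probes. Opalin in WT mice lies at -1.22 and Mbp has probes on both sides of 0 in both genotypes.

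In sham-operated tissue the genotypes were close. The difference between DEREG sham and WT sham ran from -0.41 (Ugt8a) to 0.38 (Mobp), with a median of 0.02, 5 genes above 0 and 4 below, where Mog and Cnp could take either sign under the alternatives. None passed 1.5-fold, and 3.84% of 16273 genes did in either direction, 1.04% by 2-fold. Ugt8a was lower in DEREG sham on both probes, with differences of -0.41 and -0.40 (log2). Opalin had a difference of -0.29, and Mag, Aspa, Mbp, Mal, Mog and Cnp lay between -0.12 and 0.07.

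After stroke, all 9 genes had a higher scaled signal in DEREG ischemia than in WT ischemia, by 0.08 (Cnp) to 0.34 (Opalin). Among all genes, 9892 of 16857 were higher too. Of the 9, Mbp and Cnp were not above 0 with quantile normalization. The median was 0.20, beside 0.08 over all genes. None of the 9 passed 1.5-fold in either direction, while 19.7% of 16857 genes did and 7.73% passed 2-fold. The NM_001025245 probe of Mbp lay at -0.09. Over 16172 genes measured on both arrays, the median difference was 0.25 in absolute size. The 4 largest differences among the members were those of Opalin (0.34), Mag (0.25), Mobp (0.22) and Mal (0.22).

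The difference after stroke in DEREG mice minus that in WT mice compares all 4 arrays and shares each array with a comparison above. It was above 0 for 8 of 9 genes, with Mobp at -0.15 as the exception, beside 8455 of 15120 among all genes. Mbp, Cnp and Mal took the other sign under at least 1 alternative. The median was 0.17, beside 0.06 over all genes. Opalin had the highest value, 0.64, and was the 1 member past 1.5-fold, where 17.9% of 15120 genes were in either direction and 6.12% were past 2-fold. Ugt8a followed at 0.51 and Mag at 0.36. For Opalin and Ugt8a the sham arrays contribute to this value, since both genes were lower in DEREG sham than in WT sham while both were higher in DEREG ischemia than in WT ischemia.

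**Figure D3:**
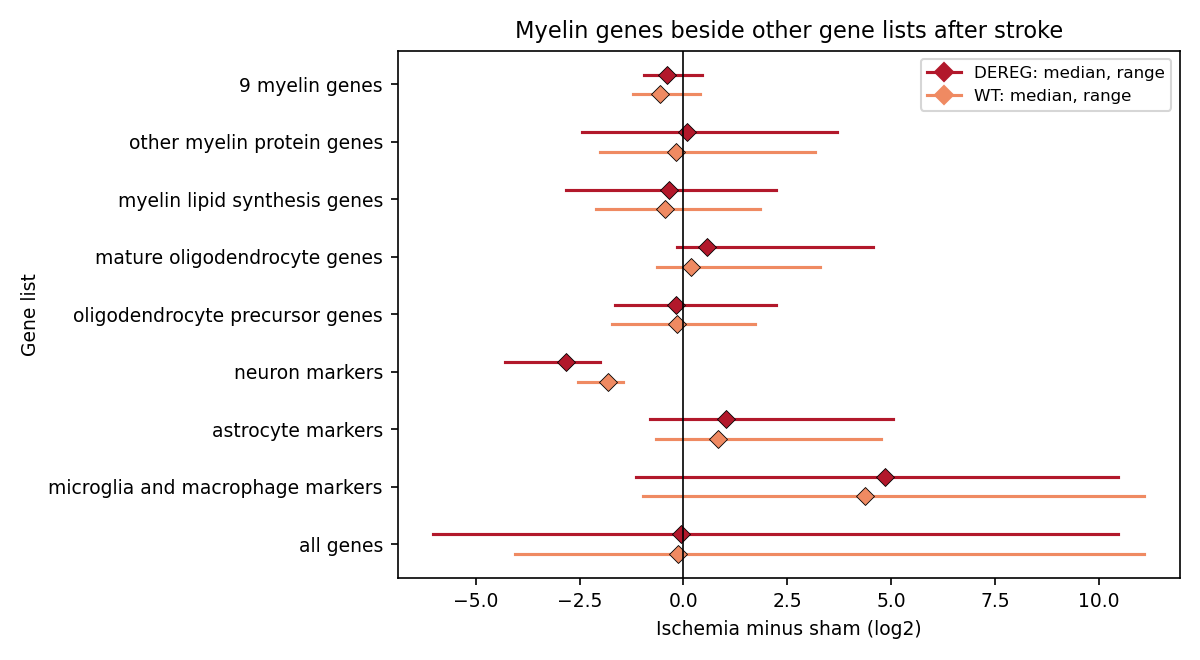
Difference between ischemia and sham (log2, x axis) for the 9 myelin genes, 7 other gene lists and all genes compared, with DEREG above WT in each row; diamonds are medians and lines run from the lowest to the highest gene. The myelin genes have medians of -0.40 in DEREG mice and -0.55 in WT mice, between the neuron markers, all at negative values, and the astrocyte and the microglia and macrophage markers.

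Other genes of the sheath had both higher and lower values after stroke. Of 22 further myelin protein genes, 21 could be compared. In DEREG mice 2 were at least 2-fold lower and 3 at least 2-fold higher (median 0.08), where 22.1% and 22.4% of all genes were. In WT mice 3 were lower and 2 higher (median -0.18), where 18.4% and 18.8% of all genes were. Cd9, a tetraspanin of the sheath that many other cells also carry, had a scaled signal of 76.0 in DEREG ischemia against 5.80 in DEREG sham, and 54.9 in WT ischemia against 6.12 in WT sham. Pmp22, a peripheral myelin protein that is not restricted to myelinating cells, was 11.9-fold higher in DEREG mice and 7.29-fold higher in WT mice. Omg, a glycoprotein of oligodendrocytes that neurons also express, was 5.44-fold lower in DEREG mice and 4.01-fold lower in WT mice.

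Genes of lipid synthesis also lay on both sides of sham. Of 15, 6 were at least 2-fold lower and 3 at least 2-fold higher in DEREG mice (median -0.34), against 22.1% lower and 22.4% higher among all genes. In WT mice 7 were lower and 3 higher (median -0.45), against 18.4% lower and 18.8% higher among all genes. Nat8l, which makes the N-acetylaspartate that Aspa splits and is a neuronal enzyme, was 7.08-fold lower in DEREG mice, and 2.27-fold lower in DEREG ischemia than in WT ischemia. Gltp, a glycolipid transfer protein, was 4.66-fold higher in DEREG mice and 3.60-fold higher in WT mice.

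Genes of mature oligodendrocytes other than the 9 had no member at 2-fold lower after stroke, against 22.1% (DEREG) and 18.4% (WT) of all genes. Of 25, 7 were 2-fold higher in DEREG mice (median 0.57), where 22.4% of all genes were, and 5 in WT mice (median 0.17), where 18.8% of all genes were. These counts of higher genes are near the share among all genes. Klk6, a secreted protease of oligodendrocytes, had 8.06 in DEREG ischemia against 0.340 in DEREG sham, and 4.36 in WT ischemia against 0.449 in WT sham. Apod, a lipid carrier that astrocytes can also make, was 6.24-fold higher in DEREG mice and 7.43-fold higher in WT mice. Evi2a was 5.78-fold higher in DEREG mice and 4.13-fold higher in WT mice. Sox10, which specifies the lineage and drives myelin genes, had 5.37 in DEREG ischemia and 4.50 in WT ischemia, against 4.44 in each sham array. Myrf was measured on 3 arrays and was 1.49-fold higher after stroke in DEREG mice.

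Of 14 genes of oligodendrocyte precursors, 4 were 2-fold higher and 1 was 2-fold lower in DEREG mice (median -0.17), and 3 were higher and 1 lower in WT mice (median -0.15). Among all genes 22.4% were 2-fold higher in DEREG mice and 18.8% in WT mice, so the counts of higher genes are near that share. The shares of all genes that were 2-fold lower were 22.1% in DEREG mice and 18.4% in WT mice. Matn4, a matrix protein, was 4.72-fold higher in DEREG mice and 3.33-fold higher in WT mice, and Cacng4 was 3.11-fold lower in DEREG mice and 3.31-fold lower in WT mice. Pdgfra, the growth factor receptor that marks precursors and is also found on fibroblast-like cells, was 4.09-fold higher in DEREG mice. It was 1.69-fold higher in DEREG ischemia than in WT ischemia.

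Neuron and myeloid markers differed further from sham, by their medians, than the 9 genes did on the same arrays. All 14 neuron markers were at least 2-fold lower after stroke, with medians of -2.83 in DEREG mice and -1.82 in WT mice. Among all genes, 22.1% were 2-fold lower in DEREG mice and 18.4% in WT mice. Of the 14 neuron markers, 9 were at least 2-fold lower in DEREG ischemia than in WT ischemia, as were 905 of 16857 genes. The summed scaled signal of the neuron markers was 127.2 in DEREG ischemia and 253.0 in WT ischemia, against 798.2 in DEREG sham and 838.4 in WT sham. Of 14 microglia and macrophage markers, 13 in DEREG mice and 12 in WT mice were at least 2-fold higher, against 22.4% and 18.8% of all genes. Their summed signal was 1360 in DEREG ischemia and 1153 in WT ischemia, against 113.4 in DEREG sham and 124.8 in WT sham. The summed signal of the 9 myelin genes, in which the brightest probes weigh most, was 178.0 in DEREG ischemia and 159.4 in WT ischemia, against 177.6 in DEREG sham and 169.9 in WT sham.

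Further markers differed between the 2 ischemic arrays. Of 9 T cell markers, 7 were at least 2-fold higher in DEREG ischemia than in WT ischemia, as were 398 of 16857 genes. Cd3d had 3.38 against 0.479, and the T cell markers had medians after stroke of 2.91 in DEREG mice and 0.87 in WT mice. Ttr, the carrier protein of choroid plexus, had 1.19 in DEREG ischemia against 63.4 in WT ischemia. Of 10 ependymal and choroid plexus markers, 3 were at least 2-fold lower in DEREG ischemia, as were 905 of 16857 genes. The medians of that list after stroke were 1.56 in DEREG mice and 2.17 in WT mice. Astrocyte markers had medians of 1.02 in DEREG mice and 0.84 in WT mice after stroke, with Gfap at 4.14 in DEREG mice and 3.83 in WT mice. In each genotype 3 of the 10 astrocyte markers were below sham. Their summed scaled signal over all 10 was 358.2 in DEREG ischemia and 355.5 in WT ischemia, against 374.8 in DEREG sham and 406.5 in WT sham. Endothelial markers had medians of 0.82 in DEREG mice and 0.55 in WT mice, and Schwann cell markers 0.68 in DEREG mice and 0.58 in WT mice. The part of these cell types in the myelin gene differences was not tested.

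A median profile of the 9 genes was taken at each tissue array after each gene was centred on its own mean. It was -0.13 in DEREG ischemia and -0.35 in WT ischemia, against 0.19 in DEREG sham and 0.20 in WT sham. Each member is itself part of this median, so its distance from it is no measure of likeness to the rest and is given as a description. The Euclidean distance over the 4 arrays was 0.08 (log2) for Mal, 0.11 for Mog and 0.39 to 0.87 for the 7 other members, with Mbp farthest. Among 15120 genes above background on all 4 arrays, the nearest that are no members included Ier5l (distance 0.045), Neu4 (0.046), Tada1 (0.046) and Olfr288 (0.048). Neu4 is a sialidase that also stands on the list of precursor genes. With 4 points per profile this is a description only.

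On the T cell arrays, 5 of the 9 genes had a probe well above background in both T cell types of the brain, and 3 of 9 in both T cell types of the spleen. Counted by probe, this was 8 of 14 in Treg and 6 in nonTreg of the brain, against 4 on each spleen array. Among all genes the share was 58.4% in Treg and 57.5% in nonTreg of the brain, against 53.8% in Treg and 52.0% in nonTreg of the spleen. Values from here on are processed intensities, not scaled, and probes of the 9 genes that were not well above background had between 1.81 and 10.9. Opalin, Ugt8a, Mobp and Aspa were not well above background on any T cell array, on any probe.

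**Figure D4:**
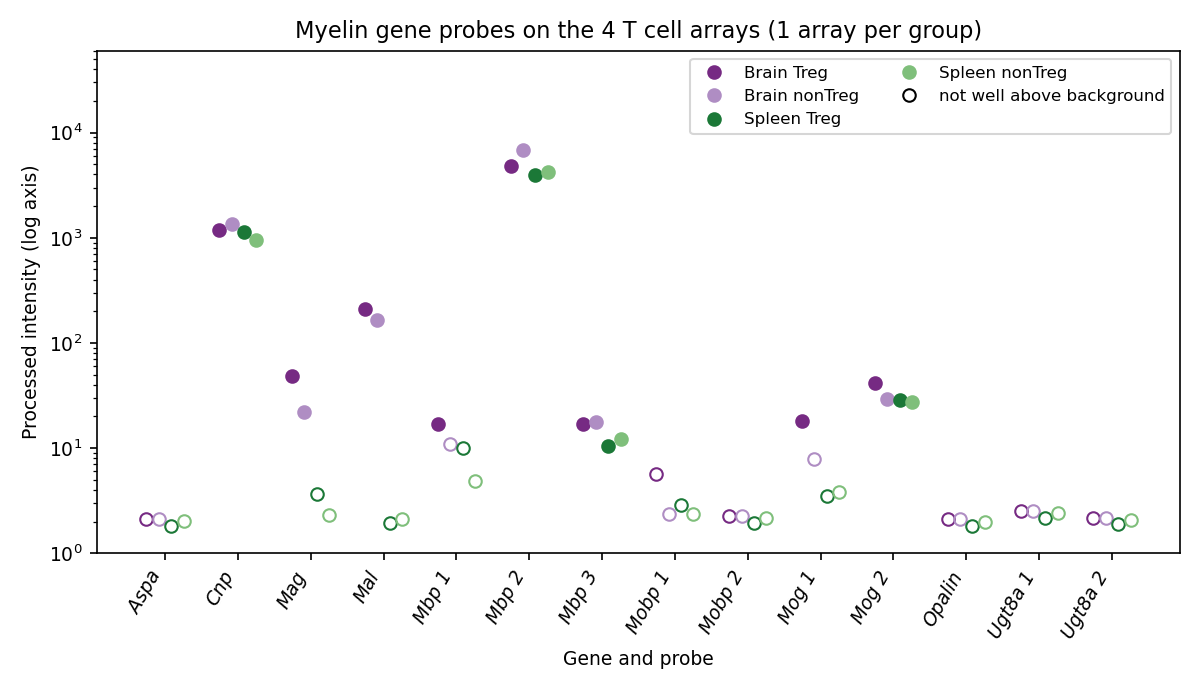
Processed intensity (log axis) of each of the 14 probes on the 4 T cell arrays, open where the spot was not well above background; probes of 1 gene are numbered in the order of their identifiers. Cnp and the second Mbp probe (designed against NM_001025245) are above background on all 4 arrays, while Mal and Mag are above background on the brain arrays and not on the spleen arrays.

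Cnp was detected in all T cell samples. It had an intensity of 1186 in Treg and 1341 in nonTreg of the brain, against 1142 in Treg and 944.8 in nonTreg of the spleen. After scaling, brain Treg were 1.23-fold lower than brain nonTreg and 1.31-fold lower than spleen Treg, so no pair lay 1.5-fold apart.

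The NM_001025245 probe of Mbp was also detected in all T cell samples. It had 4795 in Treg and 6773 in nonTreg of the brain, against 3953 in Treg and 4255 in nonTreg of the spleen. It was 1.53-fold lower in brain Treg than in brain nonTreg and 1.12-fold lower in brain Treg than in spleen Treg after scaling. Of the NM_010777 probes, the one used for tissue had 16.8 in Treg and 17.8 in nonTreg of the brain, against 10.4 in Treg and 12.2 in nonTreg of the spleen. After scaling it was 1.19-fold higher in brain than in spleen Treg and 1.03-fold higher in brain than in spleen nonTreg. The other NM_010777 probe was well above background in brain Treg alone, at 17.1. The log2 ratio of the NM_001025245 probe to the one used for tissue was 8.16 in Treg and 8.57 in nonTreg of the brain, and 8.57 in Treg and 8.45 in nonTreg of the spleen, while it lay between -4.11 and -2.76 on the tissue arrays. This ratio was thus higher on every T cell array than on every tissue array. RNA of tissue and of T cells was extracted with different reagents and the T cell arrays lie in another row of the slide.

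Mog had an intensity of 18.2 in brain Treg on the probe used for tissue, which was not well above background on the 3 other T cell arrays. Its other probe had 41.2 in Treg and 29.2 in nonTreg of the brain, against 28.5 in Treg and 27.7 in nonTreg of the spleen. After scaling, that probe was 1.30-fold higher in brain Treg than in brain nonTreg, 1.06-fold higher in brain Treg than in spleen Treg, and 1.34-fold lower in brain nonTreg than in spleen nonTreg, so no pair lay 1.5-fold apart.

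Mal and Mag were well above background in T cells from brain and not in those from spleen. Mal had 209.8 in Treg and 164.0 in nonTreg of the brain, against 1.93 in Treg and 2.13 in nonTreg of the spleen. Treg from brain were at least 17.4-fold higher than Treg from spleen, and nonTreg from brain at least 11.7-fold higher than nonTreg from spleen, where each bound sets the brain signal against the lowest signal well above background on the spleen array. Mal thus separated the tissues on all 4 arrays, with both brain arrays above both spleen arrays.

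Mag had 48.0 in Treg and 22.1 in nonTreg of the brain, against 3.65 in Treg and 2.31 in nonTreg of the spleen. The bounds were at least 3.97-fold for Treg and at least 1.59-fold for nonTreg. With the brightest probe on these arrays for each gene, which for Mbp is the NM_001025245 probe, 5 members could be compared. In Treg, 2 of the 5 (Mal and Mag) passed 2-fold towards brain over spleen, as did 17.2% of 13779 genes. In nonTreg, 1 of 5 (Mal) did, as did 17.8% of 13404 genes. Mal and Mag entered both counts only through their signal on the brain arrays, so the filter fixed their direction and the counts are a description. The 3 members measured on both arrays of each pair (Cnp, Mbp and Mog) were under 2-fold. Between brain Treg and brain nonTreg, arrays that the previous comparisons also use, 0 of 5 passed 2-fold in either direction, against 7.49% of 13756 genes, and Mag had the highest difference at 0.997 (log2).

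Lists of other brain cells were read on the same arrays. Of 25 genes of mature oligodendrocytes, 14 (56.0%) were well above background in Treg and 15 (60.0%) in nonTreg of the brain, against 10 (40.0%) on each spleen array, while the share among all genes was 58.4% and 57.5% in brain and 53.8% and 52.0% in spleen. The brain counts are thus near the share among all genes and the spleen counts below it. Their summed scaled signal was 73.7 in Treg and 70.1 in nonTreg of the brain, against 29.3 in Treg and 34.8 in nonTreg of the spleen. Of 14 genes of oligodendrocyte precursors, 3 were well above background in Treg and 3 in nonTreg of the brain, against 4 in Treg and 2 in nonTreg of the spleen. Their summed scaled signal was 0.104 in Treg and 0.097 in nonTreg of the brain, lower than the 0.188 in Treg and 0.180 in nonTreg of the spleen. All 14 microglia and macrophage markers were well above background on both brain arrays and 4 of 14 on each spleen array. Aif1, a marker of microglia and macrophages, had 2418 in Treg and 887.2 in nonTreg of the brain, against 22.5 in Treg and 11.8 in nonTreg of the spleen.

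Sox10, Myrf and Gfap were not well above background on any T cell array. Myrf was also dim in tissue, from a scaled signal of 0.027 in WT sham to 0.058 in DEREG ischemia. Of 10 astrocyte markers, 5 were well above background on each brain array and 3 on each spleen array. Of 10 endothelial markers, all 10 were on each brain array and 3 on each spleen array. The shares among all genes were 58.4% and 57.5% in brain and 53.8% and 52.0% in spleen. All 9 T cell markers with a probe were above background on all 4 arrays. The part of other cell types in the Mal and Mag signals was not tested.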

How the data were processed

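RNA of brain tissue (extracted with QIAzol) and of CD4+ T cells (TRIzol LS) was labelled with a low-input kit and hybridised to 8 Agilent mouse arrays of 1 slide with 1 scan time, per the labels' protocols and the file headers. On the slide the T cell arrays form the upper row and the tissue arrays the lower one, and levels were compared within a row. The submitters' processing notes name Agilent Feature Extraction 10.7.1.1 for the authors' scanner output. Its processed intensity is background-subtracted, detrended and linear, per the file headers, with flags for spots well above background. In the deposited table of the series the authors give a signal on a linear scale, the processed intensity over roughly its 75th percentile (constant for 99.89% to 99.97% of probes, tolerance 0.1%), and served as an alternative.

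Of 56605 probes, 32994 were named through RefSeq accessions and 23611 were not. Headers name build mm9 and the name table GRCm38.p6, so no gene positions are given, and promoters carry their own build's. Processed intensity was log2-transformed and the 75th percentile subtracted, over all probes for tissue and over probes above background on all 4 arrays for T cells. Genes were compared if the brightest probe passed the background flag on 1 array or both; a bound replaces a difference where 1 array was not. No probe of the 9 genes was flagged or saturated, and each has 1 spot. With 1 array per group no test was run, and the number of arrays limits the precision. The files hold no mean signal, so normexp (offset 50) used the median and background median signals. Other alternatives were quantile normalization, 2 other scaling points, 2 filters, the median over probes and the deposited table.

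The members and the 11 gene lists were chosen with earlier results of these data known. Named genes were all members, the 3 largest measured differences of a list in a comparison, and a few fixed genes (among them Myrf, Sox10, Gfap and Aif1). A part of these genes is not reported here. The 4 printed promoters were chosen after values were seen. The counting was tested on simulated data. Python 3.11.15, numpy 2.4.6, pandas 2.3.3, R 4.3.3 and limma 3.58.1 were used.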

Additional observations from a re-analysis of the deposited data

Results flagged for a closer look

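Mag and Aspa had opposite signs after stroke in the genotypes. For Mag the difference between ischemia and sham was 0.198 in DEREG mice and -0.164 in WT mice (log2), a gap of 0.363. For Aspa it was 0.226 in DEREG mice and -0.025 in WT mice, a gap of 0.251. The WT difference of Aspa was smaller than the spot error of a difference (0.057, log2). With quantile normalization the WT differences of both genes were above 0, so the signs were no longer opposite. With the percentile over detected probes that of Aspa was also above 0, at 0.064. Neither difference between genotypes was tested, since each group has 1 array, and 1366 of 15120 genes (9.0%) had opposite signs in the same way.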

How the results depend on the processing

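Of 360 values of single members in the tissue comparisons under the alternatives, 283 moved by less than 0.057 (log2, the spot error of a difference). The other 77 moved further, and no value past 1.5-fold took the other sign. No T cell comparison is among these 360 values. The median after stroke in WT mice (-0.55) was -0.39 with quantile normalization, -0.46 with the percentile over detected probes, -0.72 with median scaling, -0.38 with the median over a gene's probes and -0.49 over the 14 probes taken singly, an alternative added after seeing the data. The count at 1.5-fold lower in WT mice (4) was 2 with the median over probes, 3 with normexp, with quantile normalization and with the percentile over detected probes, and 5 with median scaling, and the count at 2-fold lower (2) was 1 with normexp, with the percentile over detected probes and with the median over probes. In DEREG mice the median (-0.40) was -0.25 with the median over probes and -0.039 over the 14 probes. There the count at 1.5-fold lower (2) was 1 with normexp, with the percentile over detected probes and with the median over probes, and the count at 2-fold lower (0) was 1 with median scaling. The median of DEREG ischemia minus WT ischemia (0.20) was 0.13 with quantile normalization, 0.27 with median scaling and 0.14 over the 14 probes. The median of the difference between genotypes in the stroke difference (0.17) was 0.28 with median scaling and 0.25 with the median over probes, and its count at 1.5-fold higher (1) was 0 with normexp and 2 with median scaling. The deposited table and both filters moved none of these medians and counts beyond that error. Median scaling shifted the median of all genes after stroke in WT mice from -0.14 to -0.31 and that of the difference between genotypes from 0.06 to 0.17. No paired analysis was possible because each group has 1 array. With 1 array per group these ranges cover processing only, and no spread between animals is known.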
